A study of Homo sapiens with 9 samples.

Results

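The clustered protocadherins were followed by RNA-seq in TC-32, a human cell line from Ewing sarcoma. They were taken as every gene of the deposited count table whose symbol is PCDHA, PCDHB, PCDHGA, PCDHGB or PCDHGC, with a C allowed before the number, and ends in that number. The rule found 56 genes among 58381: 16 in the alpha cluster (13 variable genes, 2 C-type genes and 1 pseudogene, PCDHA14), 18 in the beta cluster (16 genes and the pseudogenes PCDHB17 and PCDHB18) and 22 in the gamma cluster (19 variable and 3 C-type genes). All lie on the plus strand of chromosome 5 between bases 140786136 and 141512977 of GRCh38, by gene identifier in GENCODE v44. There were 9 libraries in 3 groups of 3: RFP (TC-32 with the pLOC vector carrying a red fluorescent protein), ETS1-Low and ETS1-High (TC-32 with pLOC carrying an ETS1 cDNA, at a lower and a higher ETS1 level). ETS1 is a transcription factor of the same family as FLI1, and all 3 groups share the EWSR1::FLI1 fusion background of the line. The labels give lentiviral transduction, puromycin selection and single-cell sorting as 1 protocol for every sample, but whether the RFP cells are a clone is not stated. The design text calls the ETS1 cells single-cell clones without saying how many stand behind a group, so in every comparison ETS1 level and clone cannot be told apart. Nothing in the labels says that the libraries of a group came from separate cultures, so p-values measure the spread between these libraries, which may be technical.

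Clustered protocadherins are cell-surface adhesion proteins built from extracellular cadherin repeats, best known from neurons, where each cell uses a few of the many variable promoters and like combinations on neighbouring processes recognise each other. Each variable exon of the alpha and gamma clusters has its own promoter and is spliced to constant exons at the cluster's 3′ end, whereas each beta gene is a single exon. C-type genes lie at the end of the alpha and gamma clusters and are regulated apart from the stochastic promoter choice. In many tumours and cultured cells, stretches of the clusters are silenced by DNA methylation. The constant exons matter for these data: 2869 exon bases are common to all 15 coding alpha genes (between bases 140978949 and 141012347) and 2177 to all 22 gamma genes (between 141494807 and 141512975), but 0 to all beta genes. Reads that fit several genes are divided by estimation in these counts. Of the deposited values, 57.6% in alpha, 69.8% in beta and 73.2% in gamma were not whole numbers, so the beta genes, with no constant exons, had such values as well. What part the constant exons have in this was not tested.

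The promoters show what the clusters share. Most hold CGCT, the core of the conserved sequence element known from these genes. Only the core was searched, so a match need not be that element. The 100 bases before the RefSeq start (GRCh38.p14, chromosome 5, plus strand, 5′ to 3′) are shown for the 3 genes with the highest FPKM in each cluster and for PCDHAC2, on which the results below turn most, with the capitals marking CGCT. PCDHGB2 has no CGCT there and so no capitals, but its window lies after the gene's start in GENCODE v44 (base 141359994).

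PCDHA4 (chr5:140806968-140807067): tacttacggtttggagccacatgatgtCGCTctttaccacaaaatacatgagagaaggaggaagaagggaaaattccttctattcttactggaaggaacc
PCDHA6 (chr5:140827860-140827959): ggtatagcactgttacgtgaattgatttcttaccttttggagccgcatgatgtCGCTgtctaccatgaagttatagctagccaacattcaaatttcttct
PCDHA10 (chr5:140855797-140855896): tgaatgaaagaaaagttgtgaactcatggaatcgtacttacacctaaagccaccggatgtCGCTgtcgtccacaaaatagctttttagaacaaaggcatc
PCDHAC2 (chr5:140966376-140966475): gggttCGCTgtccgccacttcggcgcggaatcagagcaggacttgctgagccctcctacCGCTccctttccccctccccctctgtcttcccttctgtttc
PCDHB2 (chr5:141094515-141094614): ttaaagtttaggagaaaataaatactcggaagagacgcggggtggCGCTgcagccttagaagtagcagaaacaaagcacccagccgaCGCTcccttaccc
PCDHB12 (chr5:141208619-141208718): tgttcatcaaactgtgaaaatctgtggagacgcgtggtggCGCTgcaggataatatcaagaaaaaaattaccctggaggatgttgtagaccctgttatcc
PCDHB15 (chr5:141245295-141245394): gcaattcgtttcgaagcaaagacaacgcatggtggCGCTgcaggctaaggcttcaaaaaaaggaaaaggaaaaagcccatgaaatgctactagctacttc
PCDHGB2 (chr5:141360036-141360135): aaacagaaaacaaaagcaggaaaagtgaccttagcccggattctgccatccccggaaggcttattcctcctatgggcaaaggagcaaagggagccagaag
PCDHGA6 (chr5:141373791-141373890): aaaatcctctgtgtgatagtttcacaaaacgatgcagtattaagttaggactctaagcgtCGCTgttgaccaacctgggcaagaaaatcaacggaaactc
PCDHGC3 (chr5:141475866-141475965): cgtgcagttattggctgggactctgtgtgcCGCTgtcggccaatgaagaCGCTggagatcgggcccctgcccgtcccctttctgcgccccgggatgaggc

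RefSeq promoters of 300 bases (250 before the start and 50 from it) matched 47 of the 56 genes by symbol. CGCT stood on the gene's strand in the last 100 bases before the start in 44 of the 47 (93.6%), against 28.1% of all 27305 promoters, and anywhere on either strand of the 300 bases in 97.9% against 69.4%. In the 33 genes with exactly 1 such match it lay a median of 54 bases before the start, with quartiles of 41 and 62. PCDHA9, PCDHB8 and PCDHGB2 had none in that window. For PCDHA9 and PCDHGB2 the window lies after the gene's start in GENCODE v44 (bases 140847772 and 141359994), so it does not show the bases before that start. The letters around the core differed between clusters: CATGATGTCGCT was found in 8 alpha promoters and GTGGCGCTGCAG in 9 beta promoters, overlapping the core in each. A core of the site of CTCF, the insulator protein that loops these promoters to their enhancers, searched as GGNGGCAG on both strands, was in 0 of the 47 against 16.2% of all promoters. An ETS site searched as CCGGAAGT was in 0 against 4.44%, and a GGAA repeat searched as GGAAGGAA in 3 (6.38%) against 3.58%. A match is a description of these letters, and no match says only that they are not in the window. The CTCF search used a single string, so sites written with other letters were not counted. Its 0 therefore does not show that CTCF sites are absent from these promoters or rarer there than in others. Whether the letters that the alpha or beta promoters share are themselves CTCF sites was not tested.

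Total expected counts ran from 39484704 to 46654734 per library. ETS1 itself followed the labels, at 2.00 ± 0.17 CPM (counts scaled to library size, with sizes normalised by TMM; mean ± SD, n = 3) in RFP, 10.6 ± 0.30 in ETS1-Low and 19.1 ± 0.81 in ETS1-High. The 10 Ewing sarcoma markers were all called higher in both ETS1 groups than in RFP (by the edgeR test given below, by which 37.9% and 37.0% of all genes were), with summed levels of 2534 to 2639 CPM in RFP, 3816 to 3884 in ETS1-Low and 3882 to 3890 in ETS1-High. The 9 neuronal markers summed to 185 to 188, 117 to 118 and 125 to 128 CPM in the same order, with RBFOX3 and ELAVL4 at 3 counts or fewer in each library. The 6 fibroblast markers summed to 122 to 133, 35.3 to 38.6 and 63.9 to 71.3 CPM, with COL1A2 at 3 counts or fewer. Both sums were lowest in ETS1-Low, as were the protocadherins below, but the markers within a list did not move alike. THY1 went from 75.7 CPM in RFP to 5.07 in ETS1-Low and 12.7 in ETS1-High and TUBB3 from 55.6 to 8.93 and 18.1, whereas NEFL was highest in ETS1-Low (6.23, 15.8 and 6.22), PDGFRA lowest in ETS1-High (12.8, 3.72 and 2.95), and DCN and LUM were called higher in ETS1-High, at 0.914 and 0.385 CPM. These 6 were picked after their values were seen. Their part in the results was not tested, and in bulk RNA fewer cells of a type and less RNA per cell cannot be told apart.

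Clustered protocadherin RNA was lowest in ETS1-Low. The 56 genes together took 0.0190% to 0.0196% of all counts in RFP, 0.00869% to 0.00879% in ETS1-Low and 0.0158% to 0.0169% in ETS1-High. The mean level was lower in ETS1-Low than in RFP for 55 of the 56, the exception being the pseudogene PCDHA14, with a single library above 0. In ETS1-High the 3 clusters parted: alpha stayed far under RFP, the beta sum lay near RFP, and 9 of the 18 variable gamma genes tested were called higher than RFP and 0 lower. Over all gamma genes tested 42.9% were called higher and 9.52% lower, beside 37.0% and 37.2% of all genes. The gamma share called higher was thus near the background.

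**Figure D1:**
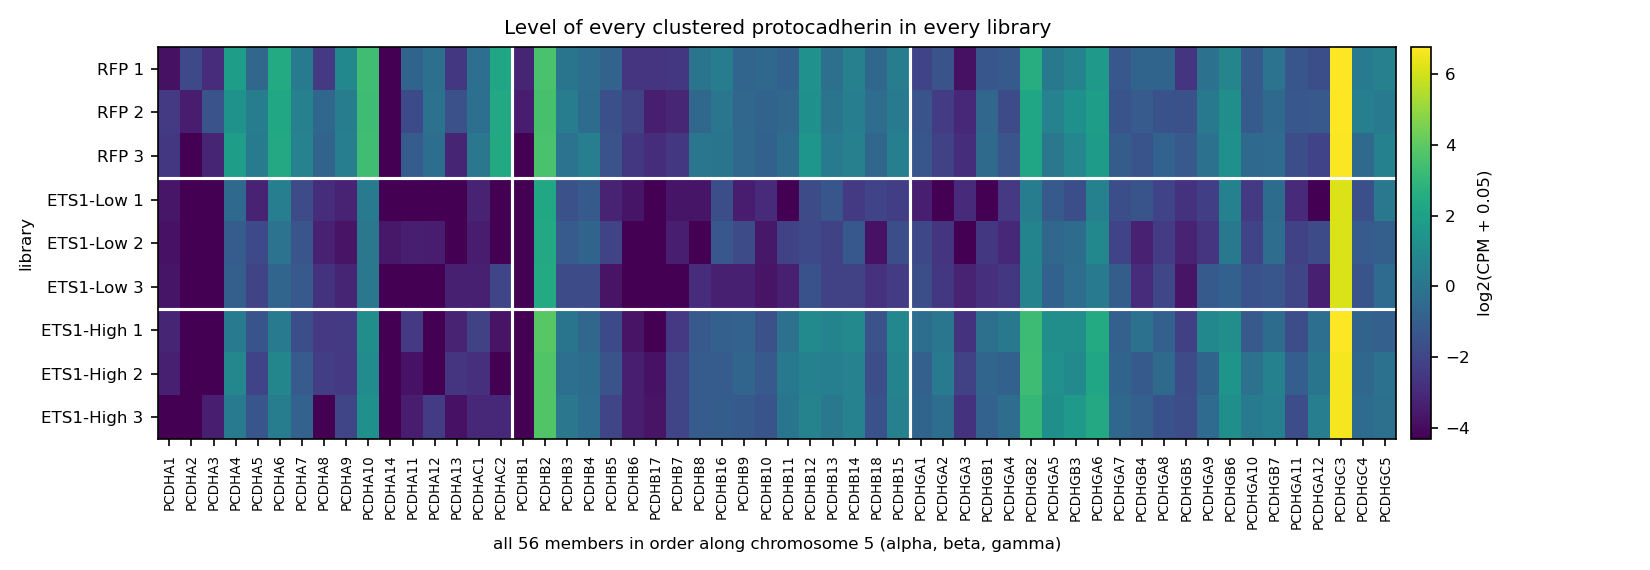
Level of all 56 clustered protocadherins (columns, in gene order) in each of the 9 libraries (rows), as log2(CPM + 0.05). The ETS1-Low rows are the darkest over most of the 3 clusters, the ETS1-High rows are dark over alpha only, and the bright column is PCDHGC3, at 69.9 to 109 CPM.

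The summed alpha level was 29.9, 29.7 and 31 CPM in the RFP libraries, 3.6, 3.11 and 3.13 in ETS1-Low, and 5.74, 6.52 and 6.20 in ETS1-High. That is 9.21-fold lower than RFP in ETS1-Low and 4.91-fold lower in ETS1-High, with no overlap between any groups. The summed beta level was 24.6, 23.6 and 25.7 CPM in RFP, 7.04, 8.25 and 7.03 in ETS1-Low, and 26.3, 24.5 and 23.8 in ETS1-High. Beta was thus 3.31-fold lower in ETS1-Low, while RFP and ETS1-High overlapped. The summed gamma level was 127, 130 and 126 CPM in RFP, 81.1, 78.8 and 79.6 in ETS1-Low, and 139, 131 and 130 in ETS1-High. ETS1-High against RFP was 0.06 in log2 terms by CPM and -0.02 by FPKM, which is also scaled to gene length, so the whole gamma sum had no settled direction. A single gene, PCDHGC3, made up 83.2% of the gamma CPM in RFP. Without it, gamma stood at 21.3, 22 and 21 CPM in RFP, 8.25, 8.93 and 8.07 in ETS1-Low, and 32.2, 32.0 and 31.3 in ETS1-High, which is 2.54-fold lower and 1.49-fold higher than RFP with no overlap. Sums carry no test here. How reads of the constant exons were divided between PCDHGC3 and the other gamma genes was not tested, and the sum without PCDHGC3 depends on it.

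**Figure D2:**
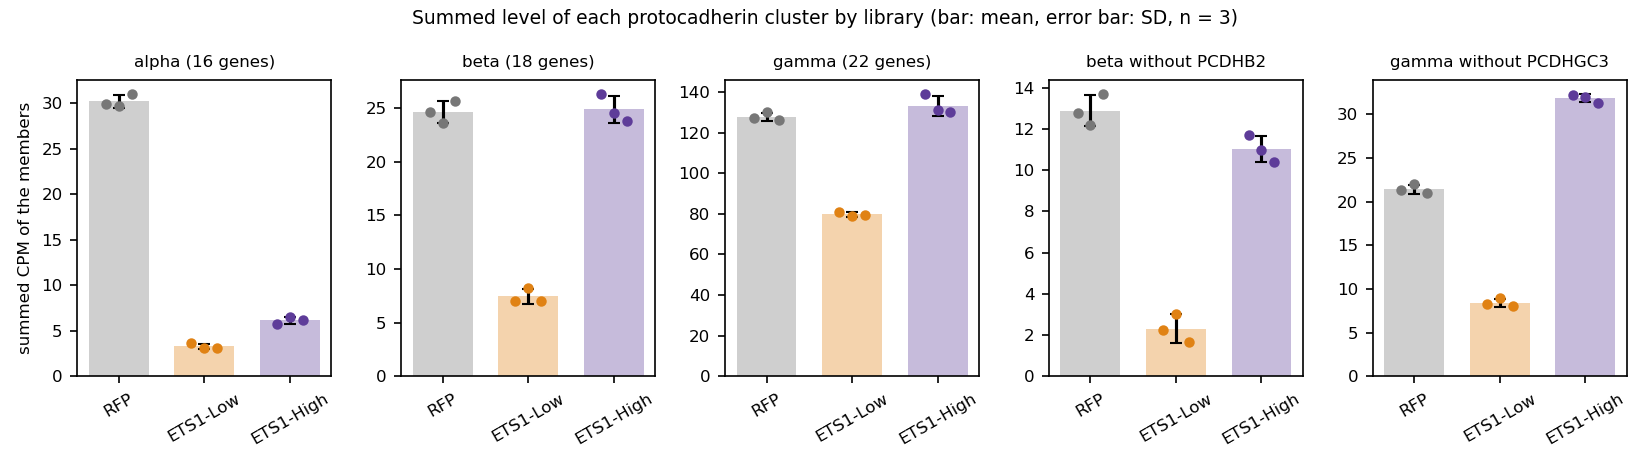
Summed CPM of the alpha, beta and gamma genes by group, with beta also shown without PCDHB2 and gamma without PCDHGC3 (points: libraries; bars: mean; error bars: SD, n = 3). Alpha is at 30.2, 3.28 and 6.15 CPM on average in RFP, ETS1-Low and ETS1-High, and gamma without PCDHGC3 at 21.4, 8.42 and 31.8.

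Gene by gene, the edgeR quasi-likelihood test was fitted across 17235 genes, with Benjamini-Hochberg adjustment over all of them and calls at an adjusted p under 0.05. Of the 56 members, 45 passed the filter on low counts (10 alpha, 14 beta and 21 gamma). Among these 45, 5 alpha genes (PCDHA9, PCDHA11, PCDHA12, PCDHAC1 and PCDHAC2) reached the filter's level only in RFP libraries, so they could hardly be called otherwise than lower. In ETS1-Low against RFP, 42 of the 45 were called lower, 40 of them by at least 2-fold, and 0 higher, where 36.2% of all genes tested were called lower and 37.9% higher. Without those 5 alpha genes it was 37 of 40. In all, 17 of the 45, those 5 among them, reached the filter's level in no ETS1-Low library (6 alpha, 5 beta and 6 gamma genes). They could hardly be called higher in ETS1-Low, and the calls were not counted without all 17. The 3 not called were PCDHGA1, PCDHGA7 and PCDHGB7, at log2 fold changes of -0.62, -0.33 and -0.31 (adjusted p = 0.203, 0.417 and 0.334). Over all 56, the 3 ETS1-Low libraries lay below every RFP library in 46 genes and above in 0, where the background over genes with a count was 24.2% and 23.2%. The median log2 fold change was -3.66 for the alpha genes tested (-2.60 without the 5 that reached the level in RFP only), -2.41 for beta and -1.34 for gamma, beside 0.01 for all genes tested.

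In ETS1-High against RFP, 12 of the 45 were called higher and 17 lower, beside 37.0% and 37.2% of all genes. The members' shares were 26.7% and 37.8%, so that the total lower was near the background. Without the 5 alpha genes that reached the filter's level in RFP only, 12 of 40 were called higher and 12 lower. Of the alpha genes tested, 10 of 10 were called lower, and 5 of 5 without those genes. The beta genes split into 3 higher, 5 lower and 6 not called. The 3 higher became 1 without RFP replicate 1, RFP replicate 2 or ETS1-High replicate 2, with the replicate block, with upper-quartile factors or with the DESeq2 Wald test. The gamma genes split into 9 higher, 2 lower and 10 not called, and both lower ones were C-type genes. All 3 ETS1-High libraries lay above every RFP library in 14 of the 56 and below in 20, where the background was 22.8% and 24.5%. On the FPKM scale (log2(FPKM + 0.1) in limma, which moved the median of all genes to -0.11), 34 members could be fitted, 6 were called higher and 12 lower, and none of the 6 was a beta gene.

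In ETS1-High against ETS1-Low, 38 of the 45 were called higher and 0 lower, beside 29.9% and 29.3% of all genes. These were 4 of 10 alpha genes (3 of 5 without those that reached the filter's level in RFP only), 14 of 14 beta genes and 20 of 21 gamma genes. Of the 45, 17 reached the filter's level in no ETS1-Low library (6 alpha, 5 beta and 6 gamma genes). They could hardly be called lower in ETS1-High than in ETS1-Low, and the calls were not counted without them. The 3 ETS1-High libraries lay above every ETS1-Low library in 39 of the 56 and below in 0, with a background of 19.2% and 18.6%. The comparisons share libraries, so their values stand side by side below and are not counted as separate support for each other.

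**Figure D3:**
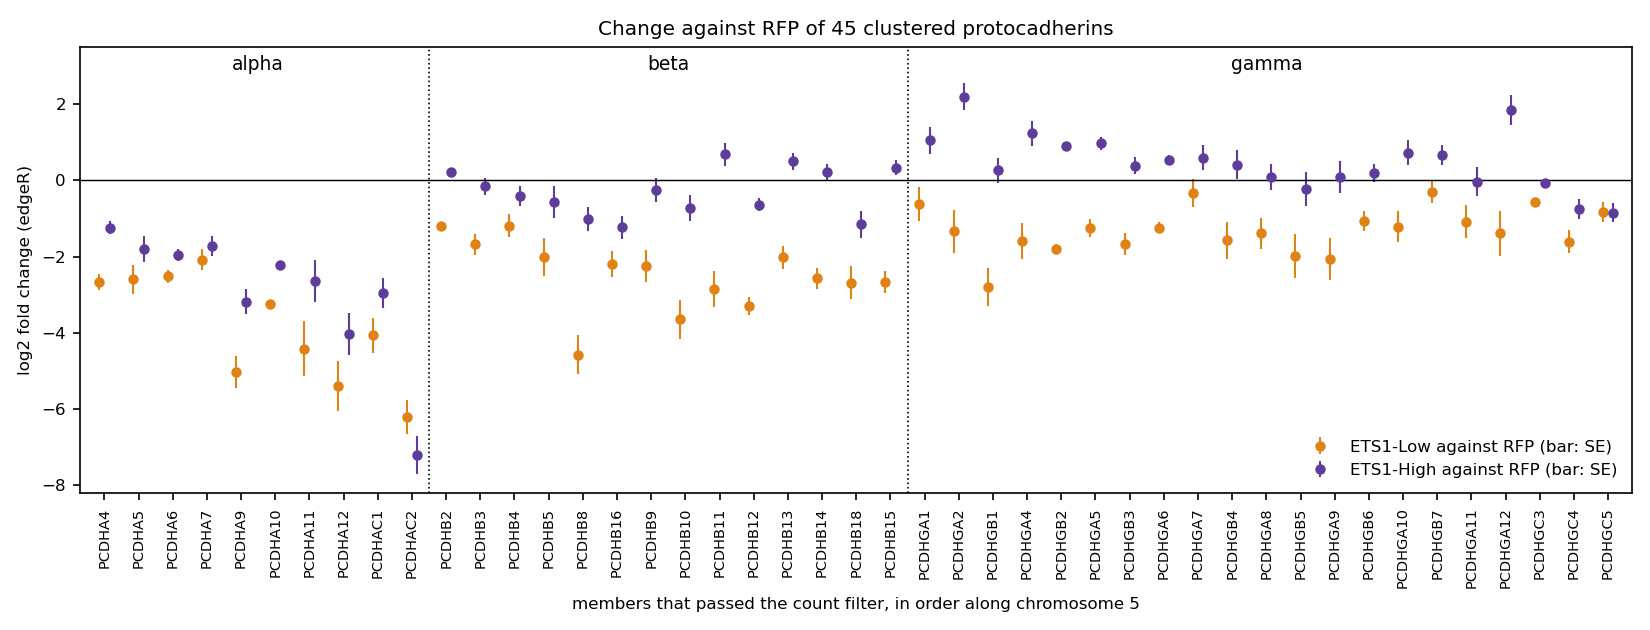
Log2 fold change against RFP (points; bars: SE worked back from the test) of the 45 clustered protocadherins that passed the count filter, in gene order, for ETS1-Low and ETS1-High. The bars can be too short for genes with few counts. Every ETS1-Low point is below 0, alpha stays below 0 in ETS1-High, and in gamma 16 of 21 ETS1-High points are above 0.

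In the alpha cluster the 3 genes with the highest mean FPKM were PCDHA6, PCDHA4 and PCDHA10. PCDHA10 stood at 10.2, 10.1 and 10.3 CPM in RFP, 1.16, 1.00 and 1.04 in ETS1-Low, and 2.18, 2.02 and 2.35 in ETS1-High. The 3 groups did not overlap, and the log2 fold change against RFP was -3.25 ± 0.12 (SE, adjusted p = 4.66e-30 by edgeR) in ETS1-Low and -2.22 ± 0.10 (adjusted p = 1.44e-25) in ETS1-High. PCDHA6 measured 5.42, 4.93 and 5.05 CPM in RFP, 1.28, 0.890 and 0.559 in ETS1-Low, and 1.09, 1.64 and 1.23 in ETS1-High. It fell by 2.51 and 1.95 on the log2 scale against RFP, but the ETS1-Low and ETS1-High libraries overlapped. PCDHA4 was at 3.54, 2.5 and 3.55 CPM in RFP, 0.640, 0.412 and 0.468 in ETS1-Low, and 1.15, 1.71 and 1.18 in ETS1-High. Its groups did not overlap either, with log2 fold changes of -2.67 ± 0.21 and -1.24 ± 0.17 against RFP.

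PCDHA9 had one of the deepest falls among the variable alpha genes. It measured 1.74, 1.25 and 1.27 CPM in RFP, 0.0550, 0.0249 and 0.0598 in ETS1-Low (5 counts in all), and 0.135, 0.130 and 0.201 in ETS1-High. The RFP level was 35.3-fold that of ETS1-Low, with a 95% counting interval of 14.9 to 110 that covers counting error only. PCDHA11 and PCDHA12, with 58 and 115 counts over the RFP libraries, had 2 counts each over ETS1-Low. Both were called lower in both ETS1 groups, and at these counts no difference was detectable between the ETS1 groups (adjusted p = 0.145 and 0.324 by edgeR). PCDHA5 was called lower in both ETS1 groups (log2 fold change -2.60 in ETS1-Low, -1.81 in ETS1-High), and so was PCDHA7 (-2.08 and -1.73). The other 6 alpha genes (PCDHA1, PCDHA2, PCDHA3, PCDHA8, PCDHA13 and PCDHA14) were below the filter, at 0.422 CPM or less on average in RFP. PCDHA2 had 13 counts over the RFP libraries (10.7, 2 and 0) and 0 over either ETS1 group. Taking a floor of 3 counts over the group, its summed RFP level was at least 3.73-fold higher than in ETS1-Low. That sum came mostly from RFP replicate 1, and RFP replicate 3 was at 0 like the ETS1-Low libraries, so the groups overlapped.

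The make-up of the alpha sum differed between the groups. By FPKM, a per-length level, PCDHA6 made up a mean of 22.9% of the alpha sum in RFP, 34.0% in ETS1-Low and 33.0% in ETS1-High, with libraries from 22.3% to 40.0%. PCDHA10 made up 17.0%, 14.1% and 16.0%, and PCDHA4 12.2%, 16.9% and 21.5%. PCDHAC2 was the third in RFP at 15.9%, above PCDHA4, and stood at 8.97% in ETS1-Low, with 26.9% in replicate 3 and 0 in the other libraries, and at 0.842% in ETS1-High. In ETS1-Low replicate 3 its 0.21 FPKM came from 8.26 counts, beside 0.82 to 0.95 FPKM from 218 to 255 counts in RFP. By CPM its share in that replicate was 6.45%. By the mean FPKM shares PCDHA4 had the fourth share in RFP and the second in both ETS1 groups. In ETS1-Low its rank rested on replicate 1, at 27.8%. In replicates 2 and 3 PCDHA4 had 10% and 12.8%, under the 15.7% and 14.1% of PCDHA10. By CPM, PCDHA10 had the largest mean share in every group, with 32.6% in ETS1-Low beside 15.3% for PCDHA4. The summed alpha FPKM was 7.80-fold lower than RFP in ETS1-Low.

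The 14 beta genes tested were all called lower than RFP in ETS1-Low (36.2% of all genes tested were), while in ETS1-High 8 of them differed from RFP by the test, in both directions. Of the 14, 5 reached the filter's level in no ETS1-Low library and could hardly be called higher there. The beta shares in ETS1-High, 21.4% higher and 35.7% lower, lay below the 37.0% and 37.2% of all genes tested. PCDHB2 was the highest of the beta genes, at 11.8, 11.5 and 11.9 CPM in RFP, 4.79, 5.20 and 5.37 in ETS1-Low, and 14.6, 13.5 and 13.4 in ETS1-High. All 3 groups were apart: the log2 fold change was -1.20 ± 0.08 in ETS1-Low (adjusted p = 1.46e-19 by edgeR) and 0.23 ± 0.07 in ETS1-High (adjusted p = 0.00174). The call in ETS1-High was lost on the FPKM scale (0.07, adjusted p = 0.516 by limma on log2(FPKM + 0.1)). PCDHB12, the second by FPKM, measured 2.40, 2.31 and 2.81 CPM in RFP, 0.238, 0.222 and 0.293 in ETS1-Low, and 1.91, 1.42 and 1.51 in ETS1-High. It fell by 3.30 against RFP on the log2 scale in ETS1-Low and by 0.64 in ETS1-High, again with no overlap. PCDHB15 was at 1.25, 1.12 and 1.34 CPM in RFP, 0.160, 0.267 and 0.148 in ETS1-Low, and 1.76, 1.57 and 1.38 in ETS1-High. Its change in ETS1-High was not called (0.33 ± 0.20, adjusted p = 0.126 by edgeR, and -0.01 on the FPKM scale), while ETS1-High lay 3.00 above ETS1-Low as a log2 fold change.

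PCDHB11 and PCDHB14 had some of the widest gaps between the ETS1 groups. PCDHB11 measured 0.487, 0.588 and 0.711 CPM in RFP, 0, 0.179 and 0.0496 in ETS1-Low, and 0.853, 1.07 and 0.931 in ETS1-High. ETS1-High lay 3.53 ± 0.43 above ETS1-Low in log2 terms (adjusted p = 9.93e-10 by edgeR). Its rise over RFP (0.68 ± 0.30, adjusted p = 0.0364) was lost in 9 of 18 alternatives. These were leaving out RFP replicate 1 or 2 (adjusted p = 0.135 and 0.0694 by edgeR) or ETS1-High replicate 2 or 3 (0.118 and 0.0644), upper-quartile factors (0.0584), the replicate block (0.0506), the DESeq2 Wald test (0.144) and limma on log2(FPKM + 0.1) and log2(FPKM + 1) (0.116 and 0.0804). PCDHB14 was at 1.37, 1.30 and 1.38 CPM in RFP, 0.134, 0.360 and 0.175 in ETS1-Low, and 1.80, 1.47 and 1.46 in ETS1-High. ETS1-High was 2.79 above ETS1-Low and did not pass the test against RFP (0.22, adjusted p = 0.328), although its libraries did not overlap with RFP. PCDHB8, the beta gene without CGCT in the window, had 120 counts over RFP and 4 over ETS1-Low, a 25.8-fold difference (95% counting interval 9.82 to 96.3).

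Of the 14 beta genes tested, 14 were lower in ETS1-Low, with log2 fold changes from -4.57 to -1.19, and 14 rose by the test of ETS1-High over ETS1-Low, with changes from 0.78 to 3.55. The same calls took 36.2% and 29.9% of all genes tested. For the 5 beta genes that reached the filter's level in no ETS1-Low library, neither call could easily have gone the other way. Against RFP, PCDHB2, PCDHB11 and PCDHB13 were called higher in ETS1-High. The call of PCDHB13 (0.50, adjusted p = 0.046 by edgeR) came with overlapping libraries, and 11 of 18 alternatives lost it, among them leaving out RFP replicate 1 or 2 or ETS1-High replicate 1 or 2 (adjusted p = 0.156, 0.0991, 0.208 and 0.0992). PCDHB8, PCDHB10, PCDHB12, PCDHB16 and the pseudogene PCDHB18 were called lower. PCDHB3, PCDHB4, PCDHB5, PCDHB9, PCDHB14 and PCDHB15 were not called. PCDHB1, PCDHB6, PCDHB7 and PCDHB17 were below the filter. PCDHB2 took 47.3% of the summed beta FPKM in RFP, 67.6% in ETS1-Low and 55.7% in ETS1-High, with no overlap between the groups' libraries. Without PCDHB2, the beta sum was 5.57-fold lower than RFP in ETS1-Low and 1.17-fold lower in ETS1-High by CPM. The whole beta sum against RFP in ETS1-High was 0.01 in log2 terms by CPM and -0.16 by FPKM, so it has no settled direction.

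Variable gamma genes come in an A and a B type, by the sequence of their variable exon. PCDHGB2 was the highest of them, at 5.94, 4.50 and 4.51 CPM in RFP, 1.21, 1.54 and 1.52 in ETS1-Low, and 9.76, 10.1 and 8.20 in ETS1-High. The groups were fully apart, with log2 fold changes of -1.80 ± 0.13 (adjusted p = 1.85e-15 by edgeR) in ETS1-Low and 0.91 ± 0.10 (adjusted p = 1.54e-10) in ETS1-High against RFP. PCDHGA6 followed, at 3.14, 3.69 and 3.47 CPM in RFP, 1.40, 1.77 and 1.15 in ETS1-Low, and 5.41, 4.51 and 5.06 in ETS1-High. Its log2 fold change against RFP was -1.24 and 0.54, again without overlap. PCDHGA5 measured 1.08, 1.44 and 1.00 CPM in RFP, 0.397, 0.581 and 0.499 in ETS1-Low, and 2.16, 2.42 and 2.28 in ETS1-High, with the ETS1-High libraries above all others (0.97 ± 0.18 against RFP).

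PCDHGA12 and PCDHGA2 had the widest called margins of ETS1-High over RFP. PCDHGA12 stood at 0.271, 0.383 and 0.184 CPM in RFP, 0, 0.252 and 0.0488 in ETS1-Low, and 0.788, 0.934 and 1.30 in ETS1-High. ETS1-High exceeded RFP by 1.85 ± 0.40 (adjusted p = 0.000194 by edgeR) and ETS1-Low by 3.24 ± 0.49 in log2 terms. Its fall in ETS1-Low (-1.39, adjusted p = 0.0364) came with overlapping libraries. That call was lost without RFP replicate 1 or 2, ETS1-Low replicate 1 or 3, or ETS1-High replicate 2 (adjusted p = 0.0758, 0.139, 0.129, 0.143 and 0.0514 by edgeR). PCDHGA2, which the naming rule did not take and which was picked after its values were seen, was at 0.309, 0.144 and 0.174 CPM in RFP, 0, 0.111 and 0.124 in ETS1-Low, and 0.959, 1.18 and 0.761 in ETS1-High, 2.20 ± 0.36 above RFP.

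Of the 18 variable gamma genes tested, 15 were called lower in ETS1-Low, 18 were called higher when ETS1-High was set against ETS1-Low, and 9 exceeded RFP in ETS1-High by the test, with 0 lower. Among all genes tested, 36.2%, 29.9% and 37.0% were called so, and 37.2% were called lower than RFP in ETS1-High. Of the gamma genes tested, 6 reached the filter's level in no ETS1-Low library. They could hardly be called higher in ETS1-Low than in RFP or ETS1-High. By type, 7 of 11 A genes (PCDHGA1, PCDHGA2, PCDHGA4, PCDHGA5, PCDHGA6, PCDHGA10 and PCDHGA12) and 2 of 7 B genes (PCDHGB2 and PCDHGB7) were called higher than RFP, with median log2 fold changes of 0.73 and 0.39. The background for both types is the 37.0% of all genes called higher, and the share of the B genes did not exceed it. The difference between the types was not tested. PCDHGA3 was the only gamma gene below the filter. Of the 9 higher calls, those of PCDHGA10 (0.73, adjusted p = 0.0402) and PCDHGB7 (0.67, adjusted p = 0.0181) came with libraries that overlapped those of RFP. With upper-quartile scaling 8 gamma genes were called higher and 3 lower, and with the DESeq2 Wald test 6 and 1.

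Of the 5 C-type genes, 5 were called lower than RFP in ETS1-Low, and 4 were called lower and 0 higher in ETS1-High. Beside them, 36.2% of all genes tested were called lower in ETS1-Low, and 37.2% lower and 37.0% higher in ETS1-High. PCDHAC1 and PCDHAC2 are among the genes that reached the filter's level in RFP only, and without them the counts lower were 3 of 3 and 2 of 3. In ETS1-High the call of PCDHGC4 was lost in alternatives given below. PCDHAC2 lost nearly all of its RNA in both ETS1 groups. It had 4.54, 5.15 and 5.22 CPM in RFP, 0, 0 and 0.202 in ETS1-Low, and 0.0254, 0 and 0.0674 in ETS1-High. Over the 3 libraries these were 714 counts in RFP and 4 in ETS1-High, a 160-fold difference with a 95% counting interval of 62.3 to 589. The log2 fold change in ETS1-Low was -6.20 ± 0.45 (adjusted p = 7.27e-08 by edgeR), with all of its ETS1-Low reads in replicate 3. With 8.26 counts there, this SE, worked back from the test, is too small to cover even counting error. PCDHAC1 measured 0.790, 0.781 and 1.00 CPM in RFP, 0.0529, 0.0402 and 0.0488 in ETS1-Low, and 0.178, 0.0890 and 0.0672 in ETS1-High. It was called lower in both (log2 fold change -4.07 and -2.95), and ETS1-High against ETS1-Low was not called (1.12, adjusted p = 0.146 by edgeR) although the libraries did not overlap.

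PCDHGC3 was the highest clustered protocadherin in every library, at 37.2 FPKM in RFP, 23.3 in ETS1-Low and 34.1 in ETS1-High on average. Its levels were 106, 109 and 105 CPM in RFP, 72.9, 69.9 and 71.5 in ETS1-Low, and 107, 99.3 and 98.7 in ETS1-High. It fell by 0.58 on the log2 scale in ETS1-Low (SE 0.03, adjusted p = 3.12e-21 by edgeR), the smallest fall of the 42 called in that comparison. In ETS1-High it stood at -0.07 (adjusted p = 0.0546), a call that turned on the scaling: with DESeq2 size factors it was -0.08 (adjusted p = 0.0261) and with upper-quartile factors -0.13 (adjusted p = 0.000338). It was also called lower without ETS1-High replicate 1 (-0.10, adjusted p = 0.00783 by edgeR). Its share of the summed gamma FPKM was 85.9% in RFP, 91.2% in ETS1-Low and 79.5% in ETS1-High, and the groups' libraries did not overlap. PCDHGB2 had shares of 3.64%, 1.93% and 7.09%, and PCDHGA6 1.57%, 1.01% and 2.13%. None of the 9 deposited counts of PCDHGC3 was a whole number.

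PCDHGC4 was at 1.16, 1.27 and 0.635 CPM in RFP, 0.277, 0.400 and 0.317 in ETS1-Low, and 0.533, 0.596 and 0.677 in ETS1-High. The ETS1-Low libraries lay below all RFP libraries (-1.61, adjusted p = 3.66e-06 by edgeR). In ETS1-High (-0.75, adjusted p = 0.0103) the libraries overlapped, and the call was lost without RFP replicate 1 or 2 (adjusted p = 0.0557 and 0.0857). It was also lost with the DESeq2 Wald test (adjusted p = 0.0699) and with limma on log2(FPKM + 0.1) and log2(FPKM + 1) (adjusted p = 0.127 and 0.172). PCDHGC5 measured 1.36, 1.09 and 1.43 CPM in RFP, 1.05, 0.460 and 0.677 in ETS1-Low, and 0.482, 0.847 and 0.798 in ETS1-High. It was called lower in both (-0.83 and -0.85), and it was the gamma gene not called between the ETS1 groups (-0.02, adjusted p = 0.969).

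Genes around the clusters give the level of the region. Among 59 other genes tested within 2 Mb, the median log2 fold change against RFP was -0.49 in ETS1-Low (7 higher, 38 lower) and -0.46 in ETS1-High (6 higher, 41 lower), and -0.07 between the ETS1 groups. For these and the lists below, the background over all genes tested is 37.9% called higher and 36.2% lower in ETS1-Low, 37.0% and 37.2% in ETS1-High, and 29.9% and 29.3% between the ETS1 groups. Chromosome 5 as a whole was shifted by about as much: 754 other genes tested on it had medians of -0.43 and -0.39 against RFP. The clusters' medians in ETS1-Low were further from 0 than that. In ETS1-High the alpha median was lower than that of the chromosome, at -2.43 (-1.81 without the 5 genes that reached the filter's level in RFP only). Those of beta (-0.33) and gamma (0.41) were not lower than it. What part of the protocadherin changes goes with this shift of the chromosome was not tested. Between the members lie 3 tested genes: TAF7, a subunit of the general transcription factor TFIID, was at 121 ± 3.8 CPM in RFP, 75.2 ± 3.4 in ETS1-Low and 98.4 ± 2.3 in ETS1-High, and the genes AC005754.8 and AC005618.6, named because only 3 lie there, had log2 fold changes of -2.21 and -1.42 in ETS1-Low and -0.49 and -0.20 in ETS1-High, neither called there. All 3 were called lower than RFP in ETS1-Low, and TAF7 was also called lower in ETS1-High (-0.30, adjusted p = 1.93e-11 by edgeR). ETS1-High exceeded ETS1-Low by the test for TAF7 (0.39) and AC005754.8 (1.73) but not for AC005618.6 (1.22, adjusted p = 0.0664 by edgeR). SLC25A2, a mitochondrial ornithine carrier gene between the clusters, was below the filter at 0.126, 0.0170 and 0.0552 CPM on average.

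**Figure D4:**
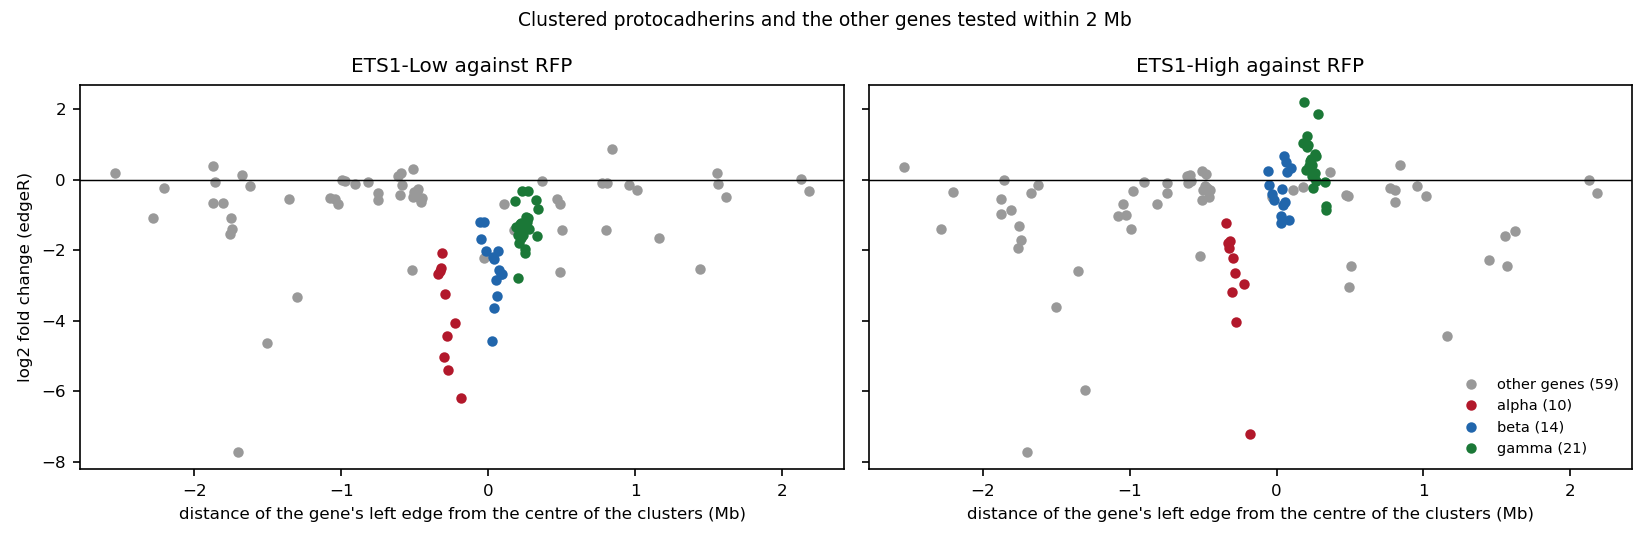
Log2 fold change against RFP of the clustered protocadherins (coloured by cluster) and of the 59 other genes tested within 2 Mb (grey), by distance in Mb from the centre of the clusters. In ETS1-High the alpha genes lie between -7.20 and -1.24 and the gamma genes between -0.85 and 2.20, while the other genes have a median of -0.46.

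Among the 25 listed non-protocadherin neighbours, 24 were tested, with 4 called higher and 18 lower in ETS1-Low and 5 and 17 in ETS1-High. GNPDA1, an enzyme of glucosamine metabolism, went from 46.0 CPM in RFP to 83.5 and 60.5, and DIAPH1, an actin-nucleating formin, from 157 to 152 and 182, the first of these not called (adjusted p = 0.170 by edgeR). SPRY4, an inhibitor of receptor tyrosine kinase signalling, was at 8.48, 2.69 and 0.386 CPM, and ARAP3, a regulator of Arf GTPases, at 15.3, 5.65 and 2.80.

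The non-clustered protocadherins, scattered over other chromosomes for the most part, did not share 1 direction. Of 12 listed, 9 were tested: 3 were called higher and 5 lower in ETS1-Low, 5 higher and 3 lower in ETS1-High, and 7 higher and 1 lower in ETS1-High against ETS1-Low. PCDH10, which binds the WAVE actin-regulatory complex, rose from 24.3 ± 0.62 CPM in RFP to 111 ± 3.0 in ETS1-Low and 143 ± 4.6 in ETS1-High. PCDH11X was at 1.82 ± 0.079, 2.24 ± 0.054 and 21.9 ± 1.8 CPM, called higher in both. PCDH19, an adhesion protein known from epilepsy, fell from 262 ± 10 CPM to 38.0 ± 0.49 and 70.4 ± 5.4, and PCDH17 from 391 ± 9.8 to 172 ± 6.3 and 231 ± 6.8. These levels are in CPM and are not compared between genes.

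Genes that build or silence the chromatin of the clusters changed in both directions, by log2 fold changes from -0.81 to 0.81 in ETS1-Low and from -1.06 to 1.02 in ETS1-High. All 24 listed were tested: in ETS1-Low 5 were called higher and 13 lower, and in ETS1-High 10 and 9, with medians of -0.12 and 0.00. CTCF was at 90.4, 82.3 and 84.4 CPM in RFP, 87.5, 88.7 and 88.8 in ETS1-Low, and 97.1, 94.8 and 100 in ETS1-High, called higher in ETS1-High (0.18, adjusted p = 3.02e-06 by edgeR) and not in ETS1-Low (0.04, adjusted p = 0.245). SMCHD1, a chromatin protein known to repress the protocadherin clusters, rose from 86.8, 83.8 and 84.0 CPM in RFP to 150, 147 and 150 in ETS1-Low and 183, 165 and 170 in ETS1-High. DNMT1, the maintenance DNA methyltransferase, rose from 282 ± 4.7 CPM to 408 ± 1.9 and 373 ± 4.9. DNMT3B, a de novo DNA methyltransferase with the deepest fall of the list in ETS1-High, went from 21.7 ± 1.3 CPM to 16.7 ± 0.71 and 10.4 ± 0.13, and EHMT1, a histone H3 lysine methyltransferase with the deepest fall in ETS1-Low, from 128 ± 4.0 to 72.9 ± 0.92 and 113 ± 1.3, both picked after their values were seen. NIPBL, the cohesin loader, fell from 206 ± 3.4 CPM to 127 ± 3.2 and 141 ± 3.3, and WAPL, the cohesin release factor, from 116 ± 5.7 to 98.0 ± 1.4 and 75.3 ± 2.1.

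Intracellular partners and proteases of the protocadherins were all 20 tested, with 5 called higher and 11 lower in ETS1-Low and 7 and 11 in ETS1-High. NCKAP1, a subunit of the WAVE complex, rose from 299 ± 11 CPM to 481 ± 12 and 673 ± 15. RET, a receptor kinase reported to bind alpha and gamma protocadherins, went from 0.692 ± 0.24 CPM to 0.449 ± 0.098 and 6.80 ± 0.54, called lower in ETS1-Low and higher in ETS1-High. FYN, a Src-family kinase, fell from 54.4 ± 1.4 CPM to 14.0 ± 1.3 and 18.3 ± 0.67, and WASF1, the WAVE1 subunit, from 335 ± 1.4 to 203 ± 3.7 and 211 ± 5.1.

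Of 16 classical cadherins and catenins, 13 were tested, with 5 called higher and 7 lower in ETS1-Low, 7 and 6 in ETS1-High, and 11 higher and 1 lower in ETS1-High against ETS1-Low. CDH4 and CDH8, both neuronal cadherins, rose from 0.882 and 1.48 CPM in RFP to 3.37 and 2.5 in ETS1-Low and 22.6 and 16.0 in ETS1-High. CDH6, another member of the cadherin family, fell from 2.77 CPM to 0.0250 and 0.318. CDH13, a cadherin without a cytoplasmic tail, was at 17.7, 16.5 and 9.58 CPM, lower in ETS1-High only by the test against RFP (adjusted p = 0.115 in ETS1-Low by edgeR), and lower in ETS1-High than in ETS1-Low (-0.79, adjusted p = 1.19e-15).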

How the data were processed

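RNA-seq was compared in 9 libraries of TC-32 cells, with groups taken from the sample titles and the column letters L and H read as Low and High. The authors deposited RSEM expected counts per gene and RSEM FPKM values (scaled to gene length and library size), per the file headers. Per the submitters' processing notes, which give no role for each tool, cutadapt 4.4, STAR 2.7.3, featureCounts, Subread 2.0.3, limma 3.38.3 and GRCh38 were used. The annotation release and the strand setting of the counting are not given in the sources used here, so antisense genes may share reads with the members. Of the table's columns, 0 were left without a library.

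Expected counts divide reads that fit several genes. They were rounded and tested in edgeR 4.0.16 (R 4.3.3, quasi-likelihood, robust, TMM, filterByExpr by group), with all 9 libraries in 1 fit, group as the only factor and Benjamini-Hochberg adjustment over 17235 genes. Levels are TMM-scaled CPM (mean ± SD, n = 3). The SE of a log2 fold change was worked back as its absolute value over the square root of the test's F value. For genes with few counts this SE can be smaller than counting error alone. A group at 0 was given a floor of 3 counts over its libraries. Counting intervals are exact at 95% and, like the floor, cover counting error only. Replicate libraries differed by more than sampling noise and were counted separately. The fit was tested on simulated data. Alternatives were DESeq2 1.42.0, other scalings and filters, a replicate block, fits of the groups compared, leaving out each library and limma 3.58.1 on FPKM.

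The members and gene lists were chosen with earlier results of these data known. Named with values are the C-type genes, the 3 highest by FPKM per cluster, up to 4 largest called changes per direction and comparison (mean of at least 20 counts, no overlap between groups), and up to 2 genes per direction from each other list, ranked by p for ETS1-High over RFP, with ETS1, CTCF, SMCHD1, TAF7 and SLC25A2.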

Additional observations from a re-analysis of the deposited data

Results flagged for a closer look

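Members named in the report were singled out here where the effect against RFP differed between the ETS1 groups, by the edgeR test of ETS1-High against ETS1-Low itself (adjusted p under 0.05). The difference, as a log2 fold change of ETS1-High over ETS1-Low, was 1.03 for PCDHA10, 0.56 for PCDHA6, 1.43 for PCDHA4 and 1.87 for PCDHA9 in the alpha cluster, where both ETS1 groups lay below RFP. In the beta cluster it was 1.43 for PCDHB2, 2.66 for PCDHB12, 3.00 for PCDHB15, 3.53 for PCDHB11 and 2.79 for PCDHB14. In the gamma cluster it was 2.71 for PCDHGB2, 1.78 for PCDHGA6, 2.21 for PCDHGA5 and 3.24 for PCDHGA12, and 0.51 for PCDHGC3 and 0.86 for PCDHGC4. All 15 differences have the same sign, but this follows from how they were chosen. Only called differences were kept, and 0 of the 45 members tested were called lower in this comparison. The naming rule also took PCDHB11, PCDHB14, PCDHB15 and PCDHGA12 for their rises in it. PCDHAC1 lay higher in ETS1-High, and PCDHAC2 and PCDHGC5 lower, but they were not called and so were left out. The 15 differences also share the ETS1-Low libraries. PCDHA6 lost its call without ETS1-Low replicate 2 or 3 or ETS1-High replicate 2, with values of 0.56, 0.32 and 0.37. PCDHGC4 lost it without ETS1-Low replicate 1 (0.74) or ETS1-High replicate 3 (0.78), and PCDHA9 without ETS1-Low replicate 2 (1.56). On log2(FPKM + 0.1) in limma PCDHA4 (0.68, adjusted p = 0.0653) and PCDHGC4 (0.57, adjusted p = 0.139) were not called, and on log2(FPKM + 1) neither these (0.15 and 0.14) nor PCDHA9 (0.02) was. With the DESeq2 Wald test PCDHA6 (0.57, adjusted p = 0.0521) and PCDHGC4 (0.89, adjusted p = 0.0739) were not called.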

How the results depend on the processing

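Of 114 counts of called members recomputed under the alternatives, 106 stayed within 1.5 times the main count. With the DESeq2 Wald test 7 members were called higher in ETS1-High than in RFP. On log2(FPKM + 1) with a mean FPKM of at least 1 only 3 members could be fitted, of which 1 was called higher and 0 lower in ETS1-High and 3 lower in ETS1-Low against RFP, and 3 higher in ETS1-High against ETS1-Low. On log2(FPKM + 0.1), 6 were higher in ETS1-High than in RFP and 24 than in ETS1-Low, and on log2(FPKM + 1) without a filter 25 than in ETS1-Low. Leaving out 1 library gave 8 to 13 higher and 15 to 18 lower in ETS1-High, 0 higher and 40 to 43 lower in ETS1-Low, and 33 to 38 higher and 0 lower between the ETS1 groups. Without RFP replicate 1 the 12 higher calls in ETS1-High became 8. Same-numbered libraries did not deviate together over all genes tested (correlations from -0.03 to 0.03). A pairing that touches few genes could be missed by this check. With a replicate block 10 members were called higher and 16 lower in ETS1-High, 42 lower in ETS1-Low and 37 higher between the ETS1 groups, and of the named members PCDHB11 lost its call in ETS1-High (0.68, adjusted p = 0.0506 by edgeR). By summed FPKM the log2 ratios were -2.96 for alpha, -1.87 for beta and -0.76 for gamma in ETS1-Low, -0.16 for beta and -0.02 for gamma in ETS1-High, and 0.67 for alpha between the ETS1 groups. Leaving out 1 library moved alpha from -3.28 to -3.17 in ETS1-Low, from -2.34 to -2.25 in ETS1-High and from 0.86 to 0.98 between them, beta from -1.81 to -1.69, from -0.03 to 0.05 and from 1.70 to 1.82, and gamma from -0.69 to -0.66, from 0.03 to 0.08 and from 0.71 to 0.76. The beta ratio in ETS1-High was -0.02 without RFP replicate 2 and -0.03 without ETS1-High replicate 1. Values of named members that changed sign were those of PCDHB15 in ETS1-High against RFP (-0.01 on both FPKM scales that fitted it) and, between the ETS1 groups, of PCDHAC2 (from -2.20 to 3.59 over the left-out libraries, the latter without ETS1-Low replicate 3) and PCDHGC5 (from -0.27 to 0.33, the latter without ETS1-Low replicate 1, with 0.19 without ETS1-High replicate 1, 0.18 and 0.04 on the FPKM scales), none of them called. Of the other values of named members, 925 kept their direction and side of the threshold, 36 lost their call and 4 gained one. The cause of these changes was not tested, beside the fewer members that FPKM filters leave. With counts below 10 in most alpha genes of the ETS1 groups, differences between those groups were often not detectable.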

Other observations

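How many members were measured at all also differed between the groups. In RFP, 41 of the 56 had at least 10 counts in every library, with 10 of 16 alpha, 14 of 18 beta and 17 of 22 gamma genes. In ETS1-Low these were 15, with 3 alpha, 3 beta and 9 gamma genes, and in ETS1-High 37, with 4 alpha, 13 beta and 20 gamma genes. The share of all genes at this level was not counted by group, so these counts have no background beside them. Library totals overlapped between the groups, from 39484704 to 46654734 counts.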
